A study of Mus musculus with 11 samples.

Results

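Monocytes were sought in 11 single-cell libraries of mouse kidney, taken from naive animals and from 2 models of kidney fibrosis. They were chosen barcode by barcode from their own UMIs (unique molecular identifiers, 1 per captured transcript). A barcode of at least 500 UMIs and 200 genes with at most 30% mitochondrial UMIs was taken when it held 3 or more of *Plac8*, *Ly6c2*, *Chil3*, *Vcan*, *Ace* and *Treml4*, or *Plac8* and *Ly6c2* together with *Ccr2*. It also had to hold *Csf1r* or *Lyz2*, fewer than 2 of the 3 C1q genes that mark kidney macrophages, and no UMI of *Cd3e*, *Cd3d*, *Cd79b*, *Cxcr2* or *Epcam*. This gave 242 of 45454 kept barcodes, with 17 in the control, 59 in the UIR and 166 in the UUO libraries.

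All animals were male C57Bl/6 mice, and surgery was at 10 weeks of age. In UIR (unilateral ischemia/reperfusion, n = 3) the left renal pedicle was clamped for 30 minutes. In UUO (unilateral ureteral obstruction, n = 3) the left ureter was tied irreversibly. Injured kidneys were collected on Day 28. The 5 control animals had no surgery and were age-matched. Tissue was dissociated with a cold-active protease and sequenced with 10x 3' v3 chemistry, 1 library per mouse. The control titles carry 3 prefixes (Ctrl, N and AN) and no batch label was given for the injured kidneys, so that any batch and the group cannot be told apart.

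Monocytes are short-lived myeloid cells that leave the bone marrow, circulate in blood and enter injured tissue, where they can become macrophages or dendritic cells. In the mouse, classical monocytes carry Ly6C and the chemokine receptor CCR2 and leave vessels at sites of injury. Nonclassical monocytes depend on the nuclear receptor NR4A1, carry high CX3CR1 and patrol the vessel wall. In the obstructed or ischemic kidney, recruited classical monocytes are a known source of macrophages during fibrosis.

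Each library held between 49503312 and 117043590 UMIs. The monocyte barcodes were deep, with medians of 6458 to 11481 UMIs per library against 1609 to 5293 for all kept barcodes and 913 to 3955 for the C1q macrophages. Of 45186 distinct kept barcode sequences, 266 (0.589%) occurred in more than 1 library. Among the 242 monocyte barcodes, 2 were also kept in another library and 0 were taken as monocytes in 2 libraries.

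The selection genes describe the members and are given without a test. *Plac8*, a cysteine-rich protein of myeloid cells, was detected in 241 of 242 barcodes, and *Ly6c2*, the Ly6C surface antigen, in 183 (75.6%). *Chil3*, a chitinase-like secreted protein, was detected in 85 (35.1%) and *Vcan*, the proteoglycan versican, in 57 (23.6%). Of the 4, *Vcan* was not detected in any of the 17 control barcodes, which allows a share of up to 17.6%. As a measure of free RNA, 868 principal cells of the collecting duct (at least 3 UMIs each of *Aqp2* and *Fxyd4*, library median depths of 9184.5 to 26006 UMIs) held *Ly6c2* in 0.691%, *Vcan* in 1.38% and *Chil3* in 0%, where a count of 0 allows up to 0.346%. *Plac8* was found in 29.0% of these principal cells, with 5.12% in control, 41.8% in UIR and 85.3% in UUO. A *Plac8* UMI alone thus did not separate monocytes from principal cells of an obstructed kidney. Of the UUO macrophages, at a lower depth, 6.85% held it. *Lyz2*, with 28126 UMIs in UUO members against 5157 of *Plac8*, was held by 41.3% of UUO principal cells. Whether principal cells express *Plac8* was not tested.

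Monocyte genes outside the selection were also detected. *Cx3cr1*, the fractalkine receptor, was detected in 167 of 242 barcodes, the integrin *Itgal* in 171 and coagulation factor *F13a1* in 118. In principal cells their shares were 2.30%, 0.922% and 0%. In the 7882 C1q macrophages the shares were 39.3%, 5.34% and 4.19%. Shares of macrophages with a UMI rest on a lower depth than those of monocytes.

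Among the members, 110 held exactly 3 of the 6 markers, 67 held 4 or more and 65 entered only through *Plac8*, *Ly6c2* and *Ccr2*. Just outside, 259 barcodes met the other criteria with 2 of the 6 markers. They had a median of 16306 UMIs. The 34 of the controls held 57562.8 CPM (UMIs of a gene per 1e+06 UMIs) of *Kap*, a proximal tubule (PT) transcript. In the 129 of UIR it stood at 21725 CPM and in the 96 of UUO at 3785 CPM. The outer limit of the C1q criterion left out 75 barcodes with 2 or 3 C1q genes, and 125 others were left out by a UMI of a T cell, B cell, neutrophil or epithelial gene.

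Monocyte barcodes were scarce in control kidneys and most frequent after obstruction. Their share of kept barcodes was 0.0851%, 0.149%, 0.188%, 0.283% and 0.0469% in the 5 controls. It was 0.450%, 0.235% and 0.335% in UIR and 1.32%, 1.05% and 0.924% in UUO. Every UUO library lay above all UIR and control libraries, while UIR1 lay inside the control range.

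The mean share was 0.150% ± 0.0923 (SD, n = 5) in control, 0.340% ± 0.108 (n = 3) in UIR and 1.10% ± 0.202 (n = 3) in UUO. UUO was 7.29 times the control mean (two-sided exact permutation p = 0.0357, the smallest that 5 against 3 libraries allow). UIR was 2.26 times the control mean (exact permutation p = 0.0714). UUO was 3.23 times the UIR mean (exact permutation p = 0.1, the smallest that 3 against 3 allow). None of these passed after Benjamini-Hochberg adjustment over the 9 share comparisons (adjusted exact permutation p = 0.161 for each). At a limit of 15% mitochondrial UMIs the means were 0.480%, 0.536% and 1.25%, so that UUO was 2.60 times and UIR 1.12 times the control mean, and the controls (0.167% to 1.01%) covered all UIR libraries (0.463% to 0.673%). With members that held no UMI of another lineage, UUO was 13.7 times the control and 5.73 times the UIR mean. The limits on genes and mitochondrial UMIs removed a larger part of the barcodes in control than in UUO. Barcodes of at least 500 UMIs numbered 15861 to 47797 per control library, of which 2010 to 3525 were kept. In UIR they numbered 14468 to 32571 (4441 to 8072 kept) and in UUO 6007 to 7675 (4223 to 5903 kept). A share falls when other cells become more numerous, and the count of monocytes per kidney was not measured.

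**Figure D1:**
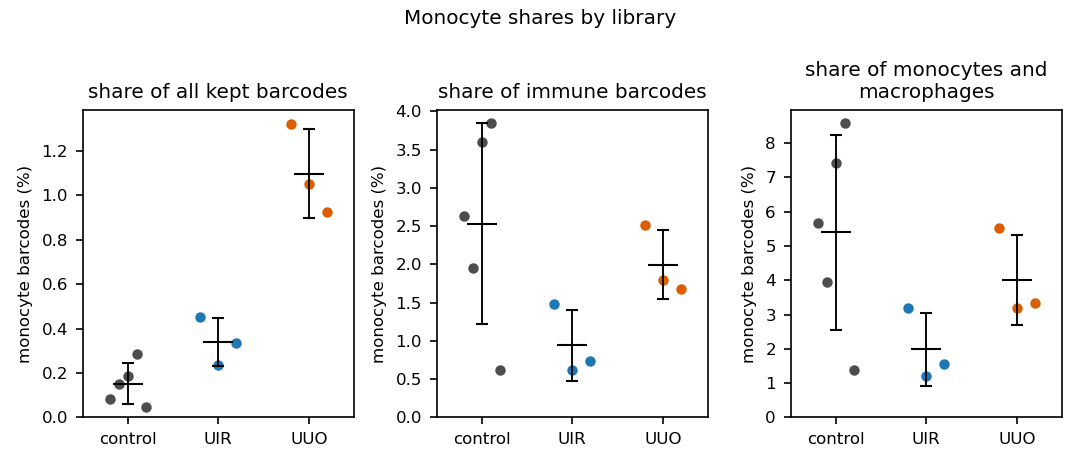
Monocyte barcodes as a percent of kept barcodes, of immune barcodes and of monocytes plus macrophages; each point is 1 library, and bars give the mean ± SD of 5 control, 3 UIR and 3 UUO libraries. UUO stands above the other groups as a share of all barcodes (1.10% against 0.340% and 0.150%), whereas control values spread over the UUO values in the other panels.

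Set against leukocytes, the order was different. Monocytes made up 2.53% ± 1.31 of immune barcodes in control, 0.945% ± 0.465 in UIR and 1.998% ± 0.451 in UUO. Neither injury was separated from control (exact permutation p = 0.107 for UIR and 0.464 for UUO), and the 3 UUO libraries lay above the 3 UIR libraries (exact permutation p = 0.1). As a share of monocytes plus macrophages the means were 5.395% ± 2.84, 1.98% ± 1.07 and 4.01% ± 1.31, with overlap between all groups (exact permutation p = 0.107, 0.429 and 0.2 for UIR against control, UUO against control and UUO against UIR). The C1q macrophages numbered 308 in control, 3443 in UIR and 4131 in UUO. Both leukocyte shares were higher in UUO than in control after thinning to 1000 UMIs and with members that held no UMI of another lineage, and the share of monocytes plus macrophages also at a minimum of 1000 UMIs.

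Many monocyte barcodes carried genes of another cell type as well, most often in UIR by the limits used here. In all, 81 of 242 (33.5%) held at least 3 genes of 1 of 8 other lineages (T, NK and B cells, neutrophils, both conventional dendritic cell types, endothelium and stroma), at least 2 UMIs of *Siglech* (a plasmacytoid dendritic cell receptor), 8 or more of 12 PT genes, or fewer than 2 of 7 general immune genes. The macrophage, plasmacytoid dendritic cell and distal tubule lists did not enter this count, and 3 or more of their genes were held by 130, 29 and 3 members. Per control library the share was 0%, 33.3%, 25.0%, 16.7% and 0%. The UIR libraries had shares of 40.0%, 47.4% and 55.0%, and the UUO libraries of 27.7%, 32.3% and 30.8%. All UIR libraries lay above all others. The means were 15% ± 14.9, 47.5% ± 7.50 and 30.2% ± 2.33 (exact permutation p = 0.0357 for UIR against control, 0.143 for UUO against control and 0.1 for UUO against UIR). These p-values are not adjusted, and the limits were set after the composition had been seen. The control shares rest on 3, 3, 4, 6 and 1 barcodes. Barcodes counted here were deeper than the others, with library medians of 13895 to 15928 against 4946.5 to 8899.5 UMIs in UIR. In UUO the medians were 13517.5 to 15096.5 against 8354 to 10855 UMIs. The order of the means depends on the PT limit of 8 genes. At least 3 PT genes were held by 16 of 17 control, 46 of 59 UIR and 8 of 166 UUO members. At least 3 genes of the plasmacytoid dendritic cell list were held by 4 of 17, 15 of 59 and 10 of 166.

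Endothelial genes were found at this level in 26 members (2 control, 11 UIR, 13 UUO). In these barcodes the vascular growth factor receptor *Kdr* stood at 1207 CPM and the endothelial sialomucin *Emcn* at 1441 CPM, beside 6580 CPM of *Lyz2* and 289 CPM of *Csf1r*. *Ace*, one of the 6 markers, is also made by endothelium and by the PT brush border. Whether such barcodes hold 2 cells, 1 cell with free RNA or 1 cell of a mixed program was not tested.

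Genes of type 1 conventional dendritic cells (cDC1) were found in 22 members (0 control, 13 UIR, 9 UUO), and 0 of 17 in control allows up to 17.6%. These barcodes held 456 CPM of the chemokine receptor *Xcr1* and 361 CPM of the dead-cell receptor *Clec9a*. They held 8516 CPM of the MHC class II gene *H2-Ab1* but 16.1 CPM of *Csf1r* and 9.20 CPM of *Cx3cr1*, so that their leading genes went against the name monocyte. Genes of type 2 conventional dendritic cells were found in 21 members, stromal genes in 13 and T cell genes in 3. NK, B cell and neutrophil genes at this level were found in 0 members, and 0 of 242 allows up to 1.24%. The selection had already left out barcodes with a UMI of *Cd3e*, *Cd3d*, *Cd79b* or *Cxcr2*. The low T cell, B cell and neutrophil counts were thus set in part by the selection.

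The 161 barcodes without these programs are called core members here (14 control, 31 UIR, 116 UUO). Their pooled levels were 600 CPM of *Csf1r*, 22896 CPM of *Lyz2*, 346 CPM of *Cx3cr1*, 4.38 CPM of *Kdr* and 2.19 CPM of *Xcr1*, of which the low levels of the last 2 were set by leaving out barcodes with endothelial or cDC1 genes. This set was drawn after the composition had been seen. Counted over core members alone, UUO exceeded control by 0.646 percentage points of kept barcodes (exact permutation p = 0.0357) and UIR by 0.0599 points (exact permutation p = 0.286). UUO exceeded UIR by 0.587 points (exact permutation p = 0.1).

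**Figure D2:**
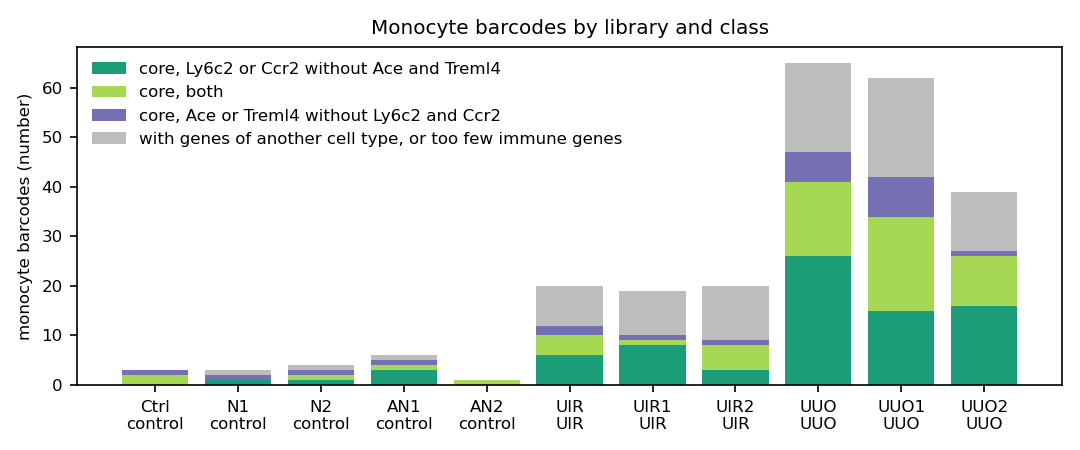
Number of monocyte barcodes in each library, stacked by class; colours give the 3 classes of core members and grey the barcodes with genes of another cell type or too few immune genes. UUO libraries held 39 to 65 barcodes, UIR libraries 19 or 20 and control libraries 1 to 6, with the largest grey share in UIR.

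The core members were split by 4 selection genes into 3 classes. Of 161, 79 held *Ly6c2* or *Ccr2* without *Ace* and *Treml4*, 23 held *Ace* or *Treml4* without *Ly6c2* and *Ccr2*, and 59 held genes of both pairs. As the classes were cut on UMIs of these genes, a shallow barcode can lack a gene by chance and the following levels are descriptions. Counts of listed genes are given without the share over all genes. In other lists, genes higher in the *Ace*/*Treml4* and in the *Ly6c2*/*Ccr2* class at 50 CPM numbered 12 and 5 (adhesion and trafficking) and 5 and 4 (inflammatory). They numbered 7 and 8 for complement and Fc receptor genes and 3 and 6 for matrix and growth factor genes.

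The *Ace*/*Treml4* class was nonclassical-like. All 17 nonclassical monocyte genes that reached 50 CPM in one of the classes were higher there than in the *Ly6c2*/*Ccr2* class. *Itgal*, an LFA-1 subunit used in patrolling, stood at 1525 against 140 CPM, and *Spn* (CD43) at 793 against 62.7 CPM. *Pglyrp1*, a peptidoglycan recognition protein, stood at 733 against 13.6 CPM and the eosinophil-type ribonuclease *Ear2* at 1000 against 25.9 CPM. *Itgal* and *Pglyrp1* were higher in 9 of the 9 libraries that held both classes. The *Ace*/*Treml4* class held only 1 barcode each in N1, N2, AN1, UIR1, UIR2 and UUO2, and 2 in the library UIR. Counts of libraries for the classes thus rest mostly on single barcodes. *Nr4a1*, which nonclassical monocytes require, stood at 396 against 76.4 CPM (higher in 6 and lower in 2 of the 9 libraries), and *Cx3cr1* at 638 against 300 CPM (higher in 7 and lower in 2). The myeloid receptor *Cd300e* was found at 293 CPM in the *Ace*/*Treml4* class and had 0 UMIs in 733196 in the other.

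The *Ly6c2*/*Ccr2* class was classical-like. In it, 18 of 20 classical monocyte genes were higher than in the *Ace*/*Treml4* class. Fibronectin (*Fn1*) stood at 1429 CPM and *F13a1* at 723 CPM, and neither had a UMI among the 116034 UMIs of the *Ace*/*Treml4* class. The calcium-binding protein *S100a4* stood at 1534 against 560 CPM. The 2 exceptions were *Clec4e*, an inducible C-type lectin, at 27.3 against 68.9 CPM and the phosphodiesterase *Smpdl3a* at 409 against 707 CPM.

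Antigen presentation genes went with the classical-like class. All 6 MHC class II genes at 50 CPM or more were higher there. *H2-Ab1* stood at 2031 against 577 CPM and the invariant chain *Cd74* at 8201 against 3163 CPM, each in 9 of 9 libraries. In N1, N2, AN1, UIR1, UIR2 and UUO2 the nonclassical-like side again rests on 1 barcode each. Of 18 interferon-stimulated genes at that level, 13 were higher in the classical-like class, among them *Isg15* at 196 against 17.2 CPM. Barcodes with genes of both pairs lay between the classes for *Itgal* (497 CPM), *Fn1* (662 CPM) and *H2-Ab1* (1713 CPM), but not for *Isg15* (261 CPM). Of 161 core members, 19 held *Flt3* and 21 *Cd209a*, genes of dendritic cells. Members that entered only through *Plac8*, *Ly6c2* and *Ccr2* held 16416.5 CPM of *Cd74* and 125 CPM of *Flt3*. Those with 4 or more of the 6 markers held 4362 and 15.4 CPM. The part of dendritic cells in the MHC class II levels of the classes was not tested.

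**Figure D3:**
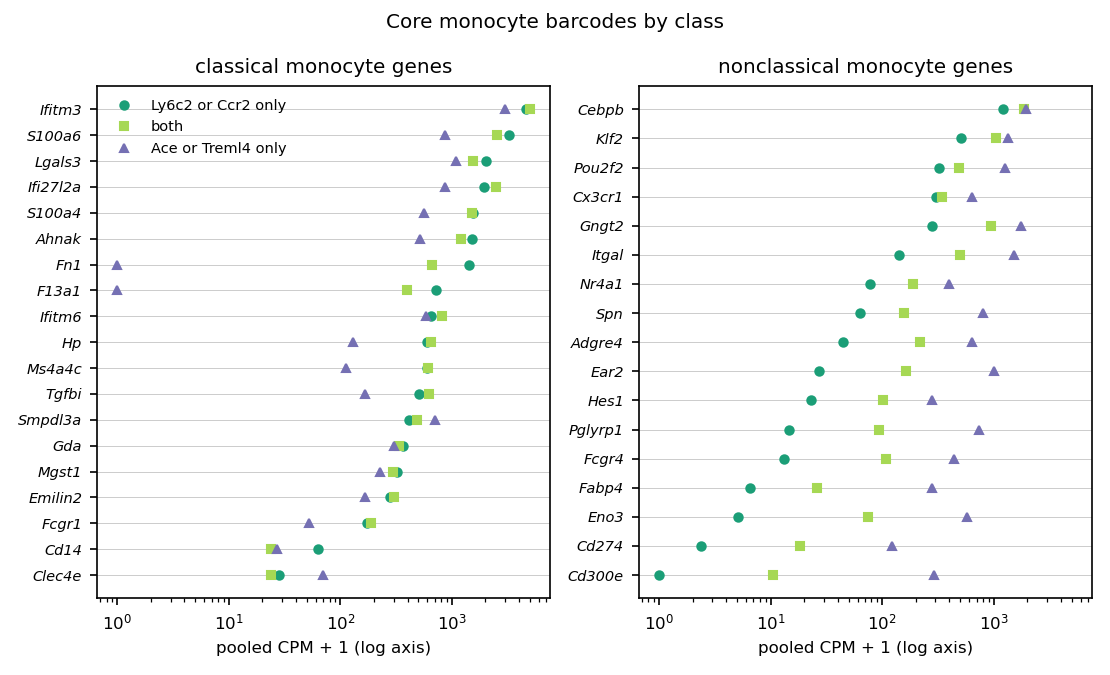
Pooled level of classical (left) and nonclassical (right) monocyte genes in the 3 classes of core members, as CPM + 1 on a log axis, so that a gene with 0 UMIs sits at 1. Nonclassical genes run from the *Ly6c2*/*Ccr2* class through the mixed class to the *Ace*/*Treml4* class, as for *Itgal* at 140, 497 and 1525 CPM.

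The balance of the classes is described without a test, since they were cut on selection genes. The classical-like class made up 28.7% ± 27.8 of core members in control, 54.4% ± 23.6 in UIR and 50.1% ± 12.6 in UUO. The nonclassical-like class made up 27.3% ± 18.6, 12.6% ± 3.57 and 11.8% ± 7.71. Control values rest on 1 to 5 core members per library.

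Differences in expression between the injuries were tested on UMIs summed per library, with edgeR's quasi-likelihood test and Benjamini-Hochberg adjustment over all genes tested, leaving out the 17 selection genes. Over all members, libraries with at least 20 monocytes entered, which left UIR and UIR2 (UIR1 had 19) against the 3 UUO libraries. Of 6357 genes, 27 (0.425%) passed, 4 higher (0.0629%) and 23 lower (0.362%) in UUO.

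Endothelial and PT genes were on the lower side. Of the endothelial list 6 could be tested and 3 passed (median log2 fold change -1.97), and of the PT list 6 could be tested and 3 passed (median -6.15). *Kdr* stood at 847, 78.0 and 331 CPM in UIR, UIR1 and UIR2 and at 81.0, 63.1 and 48.7 CPM in UUO, a log2 fold change of -3.18 in the fit. *Emcn* stood at 796, 130 and 358 CPM in UIR and at 115, 141 and 82.0 CPM in UUO. For both genes UIR1, which had too few barcodes for the fit, lay within the range of the UUO values. The capillary genes *Ehd3* and *Plpp1* had log2 fold changes of -2.90 and -2.39, the angiogenic factor *Egfl7* -2.09, the GTPase *Gimap4* -2.29, the semaphorin and VEGF co-receptor *Nrp1* -1.37 and the growth factor binding protein *Igfbp5* -2.82, and all of them passed. The barcodes with endothelial genes held 292 of the 295 UIR and 112 of the 122 UUO UMIs of *Kdr*. Of *Nrp1* they held 364 of 431 in UIR and 297 in UUO, where core members held 133. The PT transcripts *Kap*, *Miox*, *Acsm2*, *Akr1c21* and *Fxyd2* were also lower in UUO. In UIR each stood below its level in empty droplets of the same libraries, from 0.185 times (*Fxyd2*) to 0.806 times (*Kap*).

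On the higher side, *Lilrb4a*, an inhibitory receptor of myeloid cells, stood at 27.6, 88.4 and 31.0 CPM in UIR and at 130, 158 and 190 CPM in UUO (log2 fold change 2.38 ± 0.33 (SE), edgeR quasi-likelihood adjusted p = 0.0344). With libraries of 10 or more monocytes, which brings in UIR1, its log2 fold change was 1.68 and did not pass (edgeR quasi-likelihood adjusted p = 0.143). *Ifitm1*, an interferon-induced membrane protein, and *Col12a1*, a fibril-associated collagen, also passed. Core members held 31 of 181 UUO UMIs of *Ifitm1* and 1 of 213 of *Col12a1*. *Ifi204*, a DNA sensor of the interferon-inducible p200 family, was the last of the 4, at 106, 31.2 and 82.7 CPM in UIR and at 280, 303 and 264 CPM in UUO (log2 fold change 1.56 ± 0.23, edgeR quasi-likelihood adjusted p = 0.0346).

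The core members allowed a fit with all 3 UIR and all 3 UUO libraries (9 to 47 barcodes each), chosen after cell numbers and composition had been seen. Of 2885 genes, 10 (0.347%) passed, 4 higher (0.139%) and 6 lower (0.208%) in UUO, and DESeq2 called 8. The interferon-inducible genes *Ifi204* and *Slfn1* and the transcription factor *Xbp1* were higher in UUO than in UIR, and their UUO levels were at least 2 times those of empty droplets.

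*Ifi204* (chromosome 1, 173747293 to 173767069, GRCm38.p6, RefSeq) stood at 164, 89.6 and 172 CPM in UIR and at 420, 447 and 379 CPM in UUO. All UUO libraries lay above all UIR libraries, by a log2 fold change of 1.44 ± 0.29 (SE, edgeR quasi-likelihood adjusted p = 0.0228). In the controls it spread over 88.6, 0, 39.6, 561 and 138 CPM, which overlapped both groups. Empty droplets held 8.66 CPM in UIR and 28.2 CPM in UUO. The UIR values rest on 31 UMIs in all and the UUO values on 447. The gene was called in 4 of 11 alternative settings.

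*Slfn1* (chromosome 11, 83116820 to 83122670), a Schlafen family gene of lymphoid and myeloid cells, stood at 71.9, 89.6 and 51.6 CPM in UIR and at 289, 247 and 216 CPM in UUO (log2 fold change 1.75 ± 0.35, edgeR quasi-likelihood adjusted p = 0.0228). The groups did not overlap, but the UIR values rest on 15 UMIs in all and the UUO values on 270. Control values ranged from 0 to 528 CPM. The gene was called in 5 of 11 alternative settings.

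*Xbp1* (chromosome 11, 5520641 to 5525993), which drives the secretory arm of the unfolded protein response, stood at 144, 89.6 and 138 CPM in UIR and at 314, 418 and 315 CPM in UUO. Its log2 fold change was 1.39 ± 0.30 (edgeR quasi-likelihood adjusted p = 0.0398), and it was called in 3 of 11 alternative settings. The UIR values rest on 27 UMIs in all and the UUO values on 378. The means were 276 CPM in control, 124 CPM in UIR and 349 CPM in UUO, and control values of 132 to 396 CPM overlapped both injured groups.

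**Figure D4:**
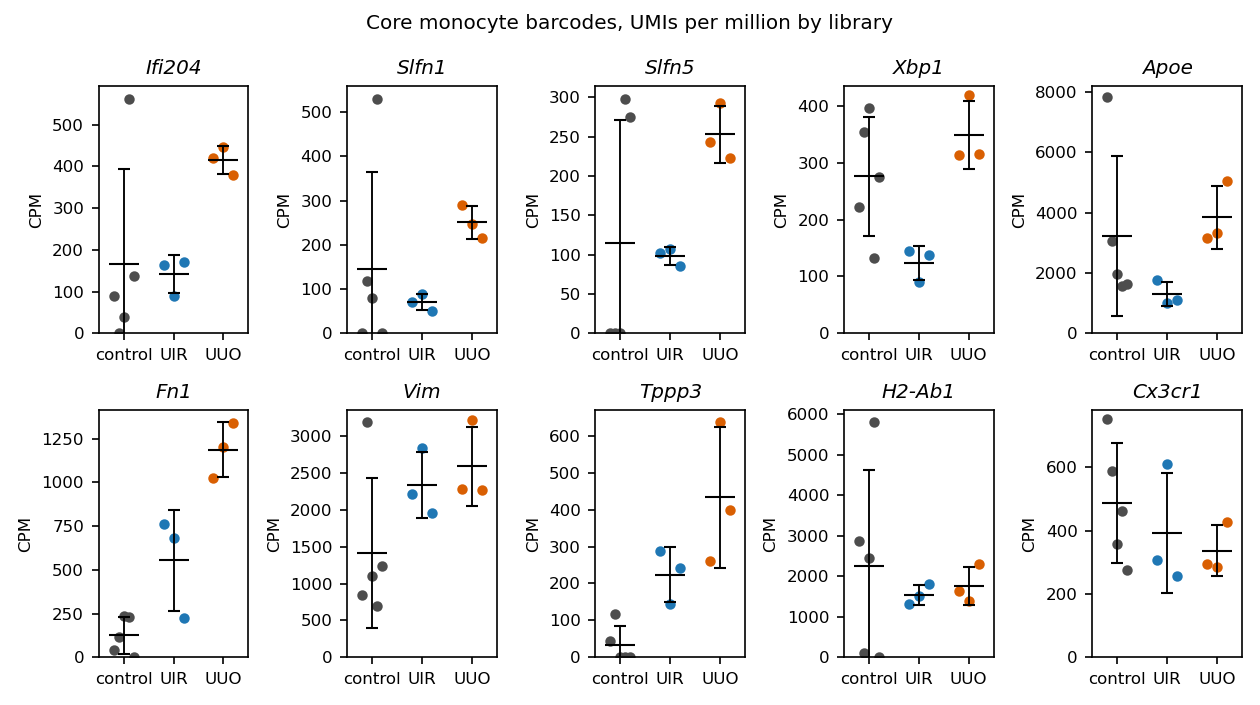
Level of 10 genes in core members, in CPM; each point is 1 library, and bars give the mean ± SD of 5 control, 3 UIR and 3 UUO libraries. *Ifi204*, *Slfn1*, *Slfn5*, *Xbp1* and *Apoe* separate UUO from UIR without overlap, whereas control libraries, of 1 to 5 barcodes each, spread widely.

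The *Ifi204* and *Xbp1* differences were also seen within the classical-like class, described here without a test. *Ifi204* stood at 244, 40.6 and 0 CPM in UIR and at 376, 407 and 387 CPM in UUO, and *Xbp1* at 113, 102 and 0 CPM against 307, 542 and 262 CPM. The last UIR value in each rests on 3 barcodes. *Slfn1* overlapped there by a small margin, with 131 CPM in both the highest UIR and the lowest UUO library.

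*Apoe*, the lipoprotein ligand that macrophages make in quantity, also passed (log2 fold change 1.47, edgeR quasi-likelihood adjusted p = 0.0013). It stood at 1768, 1021 and 1117 CPM in UIR and at 3148, 3330 and 5061 CPM in UUO. Empty droplets of the UUO libraries held 4518 to 6173 CPM of *Apoe*, against 1816 to 2324 CPM in UIR, so that the level in monocytes was 0.742 times that in UUO droplets without a cell. Of the 10 macrophage genes listed, 5 could be tested, *Apoe* passed, all 5 had a positive log2 fold change in UUO (beside 1414 of all 2885 genes) and the median was 1.47. Their summed level was 1111 to 2035 CPM in UIR and 3688 to 5659 CPM in UUO. The part of macrophage RNA in the other differences was not tested.

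Of the 6 genes lower in UUO, *Klrd1* (CD94, a receptor chain of NK cells) stood at 71.9, 161 and 120 CPM in UIR and at 24.5, 24.0 and 21.3 CPM in UUO (log2 fold change -2.28, edgeR quasi-likelihood adjusted p = 0.0398). All 23 UIR UMIs lay in the classical-like class. Over all members of libraries with at least 3, the log2 fold change was 0.60. The PT transcripts *Kap*, *Gpx3* and *Fxyd2* and the mitochondrial *mt-Nd2* and *mt-Cytb* made up the rest. The 12 PT genes summed to 781 to 1093 CPM in UIR and to 64.9 to 128 CPM in UUO core members.

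Interferon-stimulated genes lay mostly on the UUO side, although a single one passed. Of 24 listed genes 16 were tested in core members, 14 had a positive log2 fold change in UUO against UIR and the median was 0.94, beside -0.01 over all 2885 genes. *Ifi204* passed after adjustment. At an unadjusted p under 0.05, 7 were higher and 1 was lower, beside 109 higher and 85 lower of all genes. Over all members, 20 of 22 tested had a positive log2 fold change with a median of 1.14.

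In 8 of the 16, every UUO library lay above every UIR library, which was the case for 8.42% of all genes tested. In 0 of the 16 every UUO library lay below every UIR library, beside 4.71% of all genes. *Irf7*, the master regulator of the type I interferon response, had a log2 fold change of 1.21 ± 0.34 and the ubiquitin-like modifier *Isg15* one of 1.08 ± 0.36, and neither passed (edgeR quasi-likelihood adjusted p = 0.255 and 0.488). *Slfn5* stood at 103, 107 and 86.0 CPM in UIR and at 243, 293 and 223 CPM in UUO (log2 fold change 1.28 ± 0.32, edgeR quasi-likelihood adjusted p = 0.109). The UIR core members held few UMIs of these genes, 20 of *Irf7*, 21 of *Isg15* and 21 of *Slfn5*. *Bst2* (tetherin), which plasmacytoid dendritic cells also express, had a log2 fold change of -0.89 ± 0.28. Of the plasmacytoid dendritic cell list, which holds it, 2 genes were tested. Both were lower at an unadjusted p under 0.05 (median -0.84). The 1 gene tested of type 2 conventional dendritic cells was also lower at that level (-1.49), and that of type 1 was not (0.20). None passed, beside 85 lower of all 2885 genes at that level. The part of dendritic cells in the differences was not tested.

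**Figure D5:**
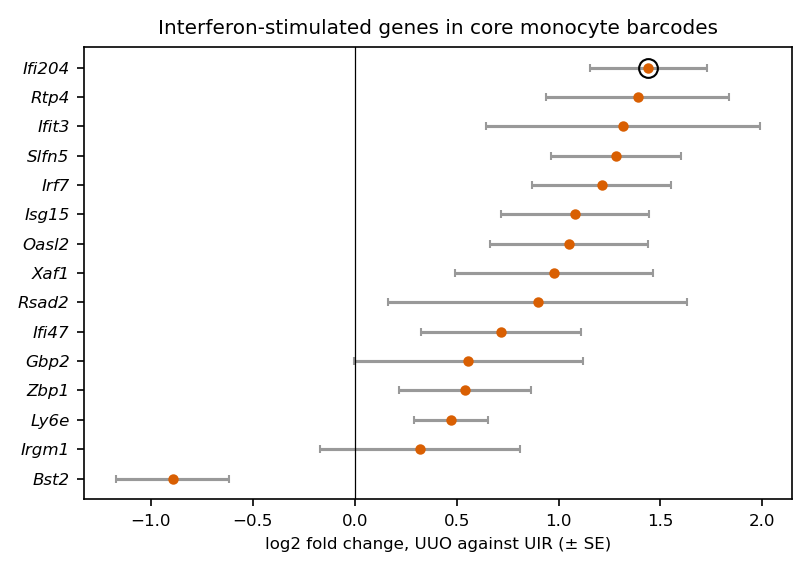
Log2 fold change of UUO against UIR in core members for 15 of the 16 interferon-stimulated genes tested, with bars of ± 1 SE from the edgeR fit on 3 UIR and 3 UUO libraries; the ring marks *Ifi204*, which passed. Of the genes drawn, 14 lie right of 0 and *Bst2* (-0.89) lies left of it.

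Summed over the list, the level was 3556, 2794 and 3644 CPM in UIR and 5449, 5566 and 4537 CPM in UUO. The injured groups did not overlap. The 5 controls held 3367, 7545, 1030, 8951 and 1789 CPM and covered both groups. Of the 9 interferon genes that could be tested against control, 2 had a positive log2 fold change in UIR (median -0.54) and 6 in UUO (median 0.19), and none passed in edgeR (1 lower in UIR at an unadjusted p under 0.05). Empty droplets held more of all 16 in UUO than in UIR, as for *Irf7* at 58.4 against 19.9 CPM, *Isg15* at 64.6 against 22.5 CPM and *Slfn5* at 32.0 against 9.97 CPM. In core members these 3 stood at 231, 219 and 253 CPM in UUO and at 90.2, 97.8 and 98.7 CPM in UIR. The part of free RNA in the difference was not tested.

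Close relatives of these genes did not all move with them. In the Schlafen family *Slfn2* stood at 641 CPM in UIR and 649 CPM in UUO (log2 fold change -0.02 ± 0.23), and *Slfn8* at 32.0 and 79.7 CPM. In the p200 family *Mnda* had a log2 fold change of 1.54 ± 0.45, *Pydc4* 1.37 ± 0.59, *Ifi203* 0.18 ± 0.28 and *Mndal* 0.20 ± 0.26, and none of the 6 passed. Genes of both families are similar in sequence, and how reads shared between copies were counted could move UMIs among them.

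Of 13 macrophage maturation genes tested in core members, *Apoe* passed, 10 had a positive log2 fold change with a median of 0.20, and 4 were higher at an unadjusted p under 0.05. Of all 2885 genes tested in core members, 109 were higher and 85 lower at that level. The lists that follow gave no gene that passed. Of 18 classical monocyte genes tested in core members, 14 had a positive log2 fold change with a median of 0.36, and 0 passed in edgeR or DESeq2 (3 higher at an unadjusted p under 0.05 in edgeR). Nonclassical genes had a median of 0.06 over 14 tested, MHC class II genes -0.17 over 6, inflammatory genes 0.03 over 8, glycolysis and hypoxia genes 0.08 over 11, and complement and Fc receptor genes 0.14 over 11. Adhesion and trafficking genes had a median of 0.07 over 15, lipid and lysosome genes 0.14 over 16, and immediate early genes 0.08 over 12. Matrix and growth factor genes had a median of 0.39 over 7. In these lists 0 genes passed in edgeR or DESeq2, with 5 higher and 2 lower at an unadjusted p under 0.05. Over all members the medians of some lists were farther from 0. Of 21 classical genes tested there, 21 had a positive log2 fold change with a median of 0.96 (14 higher at an unadjusted p under 0.05), and of 16 complement and Fc receptor genes 16 did, with a median of 0.74 (6 higher at that level). None of these passed in edgeR, beside 306 higher and 360 lower of all 6357 genes at that level. Of 9 proliferation genes tested over all members, 1 had a positive log2 fold change and the median was -1.52 (1 lower at that level). In core members, none of the 15 proliferation genes reached the level needed for a test.

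No control library held 20 members, so that the planned test could not be made. Core members of the 3 control libraries with at least 3 of them (Ctrl, N2 and AN1) were therefore fitted with the injured libraries, a choice made after cell numbers were known. For UIR against control, 0 of 968 genes (0%) passed in edgeR, 80 had an unadjusted p under 0.05, and DESeq2 called 6. For UUO against control, 6 of 968 (0.62%) passed in edgeR, 3 higher and 3 lower (0.31% each), and 14 in DESeq2.

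*Fn1* rose in UUO over control. In the controls it stood at 44.3, 118, 238, 231 and 0 CPM, in UIR at 760, 681 and 223 CPM and in UUO at 1022, 1201 and 1339 CPM. All UUO libraries lay above all others, and the log2 fold change was 2.60 ± 0.49 over control (edgeR quasi-likelihood adjusted p = 0.0203). The gene was called in 9 of 10 alternative settings and not over all members, where the log2 fold change was 2.07 (edgeR quasi-likelihood adjusted p = 0.471). Over UIR it was 0.98 ± 0.28 (edgeR quasi-likelihood adjusted p = 0.255). *Fn1* encodes a matrix glycoprotein that classical monocytes express. The nonclassical-like class held no *Fn1* UMI, and that class made up 27.3% of control and 11.8% of UUO core members. Within the classical-like class it stood at 155, 778 and 307 CPM in the 3 control libraries that had such barcodes (1, 1 and 3 of them), and at 1434, 1820 and 1691 CPM in UUO.

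The intermediate filament gene *Vim* had a log2 fold change of 1.43 ± 0.28 in UUO over control (edgeR quasi-likelihood adjusted p = 0.0203). It stood at 2284, 3210 and 2274 CPM in UUO and at 842, 1109 and 694 CPM in the 3 control libraries of the fit, but at 3183 CPM in N1, which had 2 core members and did not enter. *Tppp3*, a tubulin-binding protein, stood at 262, 637 and 400 CPM in UUO, at 288, 143 and 241 CPM in UIR and at 44.3, 118, 0, 0 and 0 CPM in control, where it had 2 UMIs. *Vim* and *Tppp3* were each called in 7 of 10 alternative settings. *Kap*, *Gpx3* and *mt-Nd2* were lower in UUO, each far below its level in empty droplets of the control libraries (0.0362, 0.0724 and 0.110 times).

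Against control, all 17 classical genes tested had a positive log2 fold change in UUO (median 0.75, 6 higher at an unadjusted p under 0.05, beside 37 of all 968 genes) and 15 in UIR (median 0.35, 2 higher, beside 33 of all 968). *Fn1* in UUO was the one that passed, beside the 3 of all genes called higher. Of 10 nonclassical genes, 1 had a positive log2 fold change in each contrast (medians -0.84 in UIR and -0.52 in UUO, with 3 and 2 lower at an unadjusted p under 0.05). Of 6 macrophage maturation genes, 0 did in UIR and 1 in UUO (medians -1.08 and -0.51, with 3 and 1 lower at that level, beside 47 and 54 of all genes). Over all 968 genes the medians were -0.05 and 0.00.

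MHC class II genes also leaned towards control. All 6 tested had a negative log2 fold change in both contrasts, with medians of -0.84 for UIR and -1.06 for UUO, and none passed in edgeR (4 lower at an unadjusted p under 0.05 in each, beside the same 47 and 54 of all 968 genes). *H2-Ab1* had a log2 fold change of -1.39 ± 0.30 in UIR and -1.19 ± 0.29 in UUO (edgeR quasi-likelihood adjusted p = 0.179 and 0.103), and DESeq2 called it and *H2-Eb1* in both, and *H2-Aa* in UUO. Both contrasts share the control libraries. Control *H2-Ab1* spread over 2880, 118, 2455, 5813 and 0 CPM, with the highest value in AN1, and covered both injured groups. N1 and AN2, at 118 and 0 CPM, did not enter the fit, so that its log2 fold changes rest on the higher controls. *Cd209a*, the 1 gene tested of those of type 2 conventional dendritic cells, stood at 222, 0, 0, 561 and 0 CPM in control, 123, 251 and 17.2 CPM in UIR and 32.7, 84.1 and 17.7 CPM in UUO (log2 fold change -1.20 ± 0.91 for UIR and -2.64 ± 0.89 for UUO, edgeR quasi-likelihood adjusted p = 0.763 and 0.239). The 6 genes of that list summed to 0 to 859 CPM in control, 68.8 to 340 CPM in UIR and 128 to 166 CPM in UUO core members, with the highest value in AN1. Their part in the MHC class II levels was not tested.

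The difference between the injuries was compared with that in C1q macrophages of the same libraries, by the interaction of cell class and group with library as a block. Over all members, 14 of 10138 genes (0.138%) passed, 1 higher (0.00986%) and 13 lower (0.128%), among them endothelial genes such as *Kdr* (log2 difference -4.52 ± 0.49). In core members, from which barcodes with endothelial genes were left out, *Kdr* did not pass (-2.24 ± 1.45, edgeR quasi-likelihood adjusted p = 0.891). The higher one was *Lilrb4a*, at 121 CPM in UIR and 168 CPM in UUO macrophages (log2 difference 2.05 ± 0.27, edgeR quasi-likelihood adjusted p = 0.0436). With UIR1 included it was 1.44 ± 0.38 (edgeR quasi-likelihood adjusted p = 0.308), and 0 genes passed, with 724 of 9824 at an unadjusted p under 0.05.

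In core members 11 of 9177 (0.12%) passed. *Ifi204* stood at 132 CPM in UIR and 174 CPM in UUO macrophages, so that its log2 fold change was 1.29 ± 0.30 larger in monocytes (edgeR quasi-likelihood adjusted p = 0.0233). *Xbp1*, at 108 and 130 CPM in macrophages, had a log2 fold change 1.36 ± 0.32 larger in monocytes (edgeR quasi-likelihood adjusted p = 0.0233). Over all members neither passed, with log2 differences of 1.31 ± 0.28 and 0.54 ± 0.22 (edgeR quasi-likelihood adjusted p = 0.219 and 0.637). *Apoe* stood at 25239 and 25611 CPM in macrophages, well above empty droplets, and at 1302 and 3846 CPM in monocytes.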

How the data were processed

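Single-cell 3' RNA-seq was run on whole-kidney suspensions of 11 mice. The authors deposited unfiltered gene-by-barcode matrices of raw UMI counts, not normalized, for 28692 genes (Cell Ranger 3.1.0 per the file headers, mm10 per the labels). Library totals give the depth, and intervals and upper limits cover counting error only.

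Barcodes were filtered and selected as stated, and no doublet caller was run: doublets were handled by the exclusion genes and by leaving out barcodes with genes of another lineage. Members and gene lists were chosen with earlier results of these data known. UMIs were summed per library and cell class, given as CPM, and tested with edgeR 4.0.16 (quasi-likelihood, TMM, filterByExpr) in R 4.3.3, checked on simulated data, with DESeq2 1.42.0 as an alternative. Shares were compared by exact permutation over libraries (scipy 1.17.1), where p-values measure the spread between mice. Empty droplets were barcode ranks 45000 to 90000. Named genes passed an adjusted p of 0.05, reached 50 CPM where higher, did not overlap between groups and stood at 2 times the empty-droplet level, or came from the lists (up to 4 each, by fold change) and from 10 defining monocyte genes. Calls below the empty-droplet level and relatives of *Ifi204* and *Slfn1* were named after their values were seen. Some listed genes are counted in their lists and not reported here. Alternatives were the UMI and mitochondrial limits, thinning to 1000 UMIs, stricter exclusion, cell minimums, normalization, gene filter, replicate block and leaving out each library. Deviations of core members from their group mean correlated with r = 0.193 between the libraries UIR and UUO, whose titles carry no number. Between the same-numbered libraries r was 0.0299 (UIR1 and UUO1) and -0.0414 (UIR2 and UUO2). Pools of so few barcodes cannot decide whether the libraries are paired.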

Additional observations from a re-analysis of the deposited data

Results flagged for a closer look

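Of 19 control series of values in core members, 4 had a library far from the other 4 by Dixon's test. Its chance rate of about 1 in 20 holds for normally distributed values. These rest on 1 to 5 barcodes per library and share the same libraries, so that 4 of 19 cannot be set against that rate. *Apoe* stood at 7841 CPM in Ctrl, *Ifi204* at 561 CPM and *Slfn1* at 528 CPM in AN1, and *Vim* at 3183 CPM in N1. The 5 control libraries together held 14 core members.

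The difference between UUO and UIR was not the same in monocytes and in C1q macrophages for 14 genes over all members and 11 in core members, by the interaction test in edgeR. Up to 8 genes in each direction are given, which leaves 9 of the 14 and all 11. Over all members, *Lilrb4a* had a log2 difference of 2.05. The endothelial or vascular genes *Gpihbp1* (-4.66), *Fam167b* (-4.60), *Kdr* (-4.52), *Gimap4* (-3.65), *Pde2a* (-3.61), *Plpp1* (-3.33), *Ctla2a* (-3.32) and *Egfl7* (-2.99) had negative ones. In core members none of these 9 passed: *Lilrb4a* had 0.96, *Fam167b* -2.51, *Kdr* -2.24, *Pde2a* -1.25, *Gimap4* -1.23, *Ctla2a* -0.93, *Plpp1* -0.46, *Egfl7* 0.0029 and *Gpihbp1* 4.65 ± 6.03. In core members the log2 difference was 4.03 for *Lyz1*, 1.68 for *Apoe*, 1.36 for *Xbp1* and 1.29 for *Ifi204*. It was -5.36 for *Cd209d*, -4.16 for *Slpi*, -3.86 for *Cd7*, -2.96 for *Cd200r1*, -2.73 for *Sparc* and -2.46 for *Fabp4*. For *Lag3* it was -10.42, a fitted value without meaning as a size, since UUO core members held 0 UMIs and UIR core members 8. Among these 11, each gene with a negative value was lower in UUO than in UIR monocytes and higher in UUO than in UIR macrophages. *Slpi* stood at 97.0 and 76.4 CPM in UIR and UUO monocytes but at 0.582 and 11.9 CPM in macrophages. For *Fabp4* these were 51.9 and 31.5 CPM against 47.1 and 165 CPM. For *Cd7* they were 283 and 46.6 CPM against 0.958 and 3.08 CPM. Barcodes with genes of another lineage were left out of core members but not of macrophages. Over all members none of these 11 passed, and the log2 differences were 3.32 for *Lyz1*, 1.34 for *Apoe*, 1.31 for *Ifi204*, 0.54 for *Xbp1*, -3.40 for *Cd209d*, -2.79 for *Fabp4*, -1.03 for *Slpi*, -0.73 for *Cd7*, -0.64 for *Cd200r1*, -0.46 for *Sparc* and 0.14 for *Lag3*. Leaving out 1 library there, the sign turned for *Sparc* (1.66 without the library UIR, 0.23 without the library UUO), *Slpi* (0.33 without the library UIR), *Cd200r1* (0.090 without the library UIR), *Cd209d* (6.09 ± 5.52 without UIR2) and *Lag3* (-0.32 without UIR2, -1.22 without the library UUO). The values without the library UIR or UIR2 rest on 1 UIR library.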

How the results depend on the processing

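The difference in the share of kept barcodes kept its direction in the 3 comparisons under each alternative, but UIR minus control fell from 0.190 to 0.0560 points at 15% mitochondrial UMIs (exact permutation p = 0.929). Leaving out 1 library, UUO exceeded control by 0.836 to 1.03 points, and no such test can reach an exact permutation p of 0.05. With members that held no UMI of another lineage, UIR exceeded control by 0.0480 points (exact permutation p = 0.0357). The UUO minus control difference in the share of immune barcodes turned to 0.303 points in that setting and to 0.188 points after thinning. In the share of monocytes plus macrophages it turned to 0.517 and 0.913 points, and to 1.21 points at 1000 UMIs.

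For UUO against UIR over all members, calls numbered 44 with DESeq2, 484 with no filter, 1 from libraries of 10 or more monocytes, 0 with the replicate block and 0 to 244 leaving out 1 library (244 without the library UIR, 13 without UIR2, 0 without any UUO library). In core members they numbered 29 with no filter, 0 over all members of 3 or more cells, 16 with the replicate block and 3 to 5 leaving out 1 library. For UIR against control they numbered 6 with DESeq2, 63 with no filter and 0 to 2 leaving out 1 library (2 without N2). For UUO against control they numbered 14, 162, 0 over all members, and 4 to 16 (14 without Ctrl, 16 without AN1). For monocytes against macrophages they numbered 0 with 10 or more monocytes, 230 with no filter and 0 to 56. No fit was made at 15% mitochondrial UMIs or under strict exclusion, where fewer than 2 UIR libraries held 20 members.

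Signs of log2 fold changes turned in UUO against UIR for *Klrd1* (0.60), *Cx3cr1* (0.33) and *H2-Ab1* (-0.80) over all members. Leaving out 1 library, they ran from -0.44 to 0.17 for *Cx3cr1*, -0.32 to 0.81 for *Nr4a1*, -0.70 to 0.42 for *Il1b* and -0.057 to 0.33 for *H2-Ab1*. The cause of these changes was not tested.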
